A study of Mus musculus with 7 samples.

Results

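The proteasome genes of the embryonic choroid plexus were examined after exposure to red blood cells. The set held the genes of the constitutive core particle, the regulatory cap, the alternative activators, the inhibitor Psmf1 and the assembly chaperones. Members were all genes of the deposited table whose symbol is Psm followed by a letter from a to g and a number, without the inducible catalytic subunits Psmb8, Psmb9 and Psmb10. This gave 46 of 40873 genes. Pooled choroid plexus of the lateral ventricles was collected at E15.5 (embryonic day) from wild-type CD-1 mice, an outbred stock, 24 h after treatment with washed red blood cells of an E14.5 donor litter (RBC, 3 libraries) or with saline (4 libraries). All libraries are poly(A) RNA of batch 1. The sources used here do not give the number of embryos or litters per pool, so the p-values reflect only the scatter among these libraries, which may in part be technical.

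The proteasome degrades proteins that carry ubiquitin chains. Its 20S core is a barrel of outer alpha and inner beta rings, and 3 of the beta subunits (Psmb5, Psmb6 and Psmb7) carry the peptide-cutting sites. The 19S cap binds ubiquitin, unfolds the substrate with a ring of ATPases and feeds it into the core. The core can instead be opened by activators that need no ATP. These are PA28 alpha and beta (Psme1 and Psme2), which are known to be inducible by interferon and to favour peptides for class I antigen presentation, the nuclear PA28 gamma (Psme3) and PA200 (Psme4).

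Promoter windows are shown for 3 activator genes, because Psme1 and Psme3 encode related activators and had the largest and the smallest positive log2 fold change of the set. Each window is a RefSeq sequence on GRCm38.p6 that runs from 250 bases before the gene's start to 50 bases after it, in the direction of transcription. Capitals mark matches on either strand to the interferon-stimulated response element (ISRE, the letters GAAA, any 2 bases and GAAA) in Psme1 and to the CCAAT box (CCAAT, here read on the minus strand) in Psme3. Psme2 had no match to these, to the gamma-activated site (GAS, TTCNNNGAA) or to the antioxidant response element (ARE, TGACNNNGC) in either of its windows, and its window that starts further upstream is printed.
Psme1, chr14:55578244-55578543, plus strand: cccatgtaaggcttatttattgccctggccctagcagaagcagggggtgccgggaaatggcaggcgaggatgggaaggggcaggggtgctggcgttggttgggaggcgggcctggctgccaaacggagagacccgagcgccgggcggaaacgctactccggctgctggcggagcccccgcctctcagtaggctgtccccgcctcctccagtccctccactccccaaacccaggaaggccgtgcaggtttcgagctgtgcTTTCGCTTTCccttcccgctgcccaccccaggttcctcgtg
Psme2, chr14:55591052-55591351, minus strand: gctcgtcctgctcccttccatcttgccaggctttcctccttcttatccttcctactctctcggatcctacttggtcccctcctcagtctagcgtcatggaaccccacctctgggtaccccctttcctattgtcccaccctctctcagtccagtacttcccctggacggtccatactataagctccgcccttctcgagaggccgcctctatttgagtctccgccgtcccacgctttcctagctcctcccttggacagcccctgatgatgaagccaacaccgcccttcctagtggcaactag
Psme3, chr11:101315963-101316262, plus strand: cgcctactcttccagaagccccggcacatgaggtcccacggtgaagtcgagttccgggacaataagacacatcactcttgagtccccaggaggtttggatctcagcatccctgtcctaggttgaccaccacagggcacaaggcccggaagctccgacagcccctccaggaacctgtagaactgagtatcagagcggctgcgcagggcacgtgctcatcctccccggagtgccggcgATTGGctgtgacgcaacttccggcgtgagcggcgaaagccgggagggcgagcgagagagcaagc
The ISRE match of Psme1 reads GAAAGCGAAA on the minus strand and begins 10 bases into the transcript, counting the start as base 1. Windows were found for 38 members. An ISRE match was present in 5 of these 38 (Psme1, Psmb3, Psmd4, Psmd9 and Psmg4), or 13.2%, against 3.99% of all 27025 genes with a window. GAS matches were present in 2 members (5.26%, against 9.55% of all genes), ARE matches in 6 (15.8%, against 14%) and CCAAT matches in 13 (34.2%, against 41.1%). A match is a run of letters and does not show that a factor binds there. Among the members with an ISRE match, log2 fold changes were 0.50 for Psme1, 0.06 for Psmb3, 0.18 for Psmd4, 0.15 for Psmd9 and 0.32 for Psmg4. Psme2, without a match, also had 0.32. Whether the matches bear on these values was not tested.

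Total counts per library lay between 4393860 and 8386928. Saline 4, the library with the lowest total, stood apart in liver transcripts. The 5 hepatocyte markers other than Ttr (Alb, Afp, Apoa1, Apoa2 and Ahsg) summed to 2.14, 2.22 and 9.85 CPM in RBC 1 to 3, against 2.23, 1.93, 18.8 and 1403 CPM in saline 1 to 4. Without saline 4 the median log2 fold change was 0.13 for the members, 0.13 for the core, 0.11 for the cap and 0.43 for Psme1 and Psme2, beside 0.01 for all genes, and Psme1 was at 0.53 (edgeR adjusted p = 0.191).

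Of the 46 members 44 passed the filter on low counts and were tested with the quasi-likelihood test of edgeR, and 0 passed a Benjamini-Hochberg adjusted p of 0.05 over all genes. Over all 14869 genes tested 9 passed (0.0605%), 6 of them higher in RBC (0.0404%) and 3 lower (0.0202%). With 1 library left out this number lay between 1 (saline 1, 2 or 3 left out) and 283 (RBC 3 left out), with 17 when RBC 1, 34 when RBC 2 and 5 when saline 4 was left out. At an unadjusted p under 0.05 there were 4 members (Psme1, Psma7, Psmd7 and Psmd10), or 9.09% of the 44, against 9.54% of all genes, so the share among members lay near the background. All 4 were higher in RBC, where 5.22% of all genes were at that threshold and higher, and 4.32% were lower. Without RBC 2 the number of members was 1 (Psme1), where 7.35% of all genes were at that threshold. Without RBC 2 and saline 4 it was 2 (Psmd4 and Psme1), where 7.51% of all genes were. Without RBC 3 it was 13 of the 44, where the share of all genes was also higher, at 13.4%. Every RBC library lay above every saline library for 5 members (Psme1, Psma7, Psmc1, Psmd7 and Psmd11), or 11.4%, against 4.96% of all genes, and below for 0, against 4.63% of all genes.

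The direction was shared by most of the set, at a small size. A positive log2 fold change (RBC minus saline) was found for 39 of the 44 members, or 88.6%, against 49.9% of all genes tested. The number was 34 without RBC 2 and between 36 and 41 under all other alternatives, the other normalizations included. The libraries did not share this evenly. Relative to its saline mean (log2), the median member was at 0.124, 0.142 and -0.021 in RBC 1 to 3. In saline 1 to 4 it was at -0.003, -0.007, -0.050 and 0.044, so RBC 3 lay within the saline range. The median over the 44 was 0.09, a ratio of 1.07, beside a median of 0.00 over all genes, and the standard error of a single member was typically 0.08. Members ran from -0.14 ± 0.09 (SE) for Psmf1 to 0.50 ± 0.12 for Psme1. These genes are chosen by name and share libraries, so they are not replicates of the treatment.

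**Figure D1:**
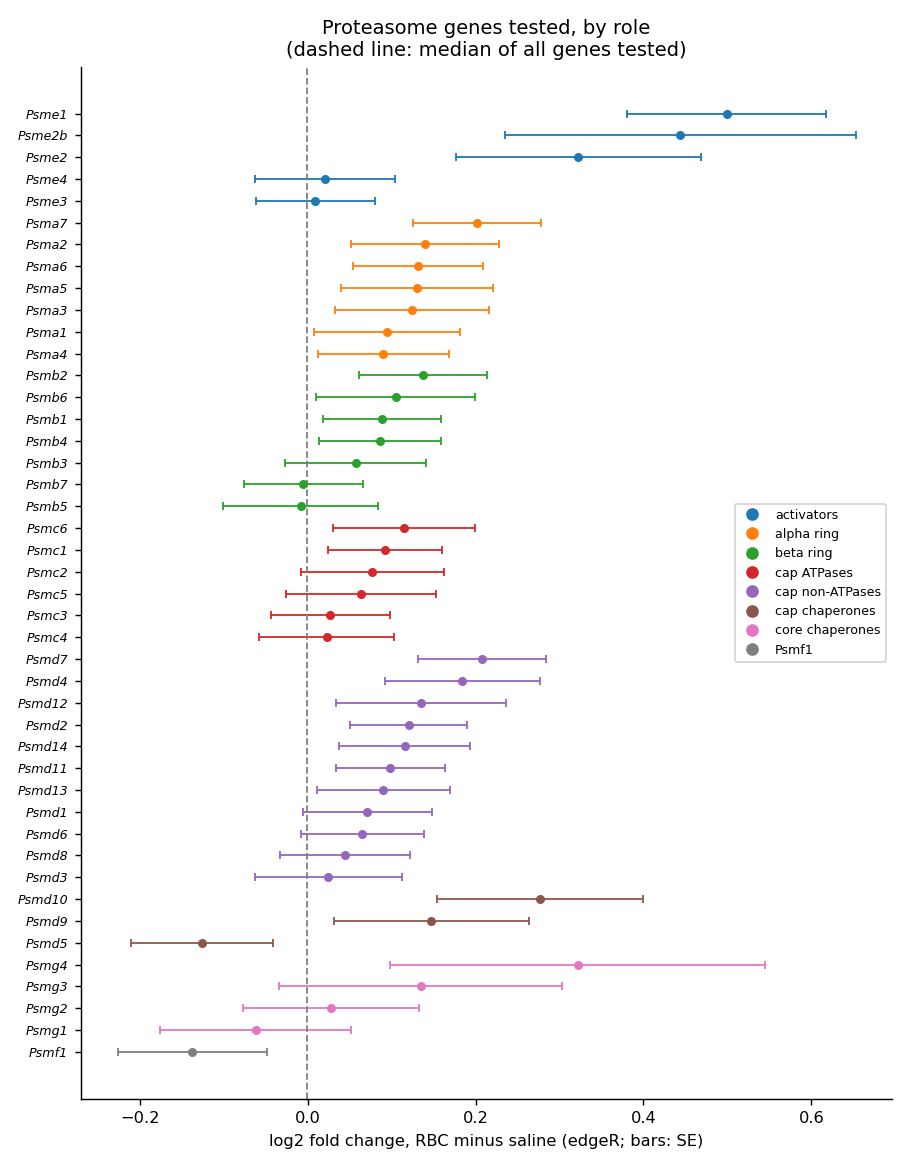
Log2 fold change (RBC minus saline, x axis) with its standard error for each of the 44 proteasome genes tested, grouped and coloured by role, with the median of all genes tested as a dashed line. Psme1 is at the top with 0.50, most core and cap genes lie between 0 and 0.21, and Psmf1 is lowest with -0.14.

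Psme1, which encodes PA28 alpha, had the largest log2 fold change of the 44. Its levels were 90.4, 124 and 85.3 CPM (counts scaled to a common library size, with TMM factors) in RBC 1, 2 and 3, against 71.5, 70.1, 67.5 and 74.35 CPM in saline 1 to 4. The groups did not overlap, and RBC 2 stood above the other RBC libraries. The means were 100.01 ± 21.2 CPM in RBC (SD, n = 3) and 70.9 ± 2.87 CPM in saline (SD, n = 4), a ratio of 1.41. The edgeR test gave an unadjusted p of 0.00147 and an adjusted p of 0.138, while DESeq2 gave an adjusted p of 0.0166, a level that 1.62% of the genes it tested passed. Over the alternatives the adjusted p lay between 0.0166 and 0.351, the unadjusted p was under 0.05 in all of them, and the log2 fold change was 0.31 without RBC 2 and 0.60 without RBC 3, where it passed (edgeR adjusted p = 0.0210). In pooled tissue, more cells of a type that expresses a gene and more RNA per cell cannot be told apart.

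Psme2, which encodes the PA28 beta partner that assembles with PA28 alpha, had 61.8, 78.05 and 46.4 CPM in RBC 1, 2 and 3, against 48.5, 53.1, 48.6 and 48.9 CPM in saline 1 to 4. RBC 1 and RBC 2 lay above every saline library and RBC 3 below every one, so the groups overlapped. The log2 fold change was 0.32 ± 0.15 (SE, edgeR adjusted p = 0.532), 0.13 without RBC 2, and 0.49 without RBC 3, where it passed (edgeR adjusted p = 0.0314). The median of Psme1 and Psme2 was 0.41, and 0.22 without RBC 2. Psme1 exceeded Psme2 in every library, with a ratio of 146, 159 and 184% in RBC 1 to 3, against 148, 132, 139 and 152% in saline 1 to 4, on CPM per kb of exon.

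Psme2b, a gene whose exons cover its whole span of 1066 bases and whose sequence is close to Psme2, had 12.2, 19.7 and 11.8 CPM in RBC 1 to 3, against 11.1, 13, 8.97 and 9.73 CPM in saline 1 to 4. Its order over the RBC libraries was led by RBC 2, as for Psme1 and Psme2, and the groups overlapped (log2 fold change 0.44 ± 0.21, SE, edgeR adjusted p = 0.549, and 0.17 without RBC 2). Of its 75-base transcript words 60.2% also occur in Psme2 transcripts, and 22.9% of those of Psme2 occur in Psme2b, so how the counting split reads between them is uncertain. It also shares 261 exon bases on the same strand with 9930111J21Rik1, which had 36 counts over all libraries, beside 565 of Psme2b.

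The other activators had nearly equal means in both groups. Psme3, which encodes PA28 gamma, had 108, 107 and 95.4 CPM in RBC 1 to 3, against 103, 101, 105 and 103 CPM in saline 1 to 4, which gave 0.01 ± 0.07 on the log2 scale (SE, edgeR adjusted p = 0.989). The RBC libraries lay on both sides of the saline range. Psme4, which encodes the large single-chain activator PA200, had 194.5, 185 and 169 CPM in RBC 1 to 3, against 168, 176, 205 and 171 CPM in saline 1 to 4 (log2 fold change 0.02 ± 0.08, SE, edgeR adjusted p = 0.974). The sign of both log2 fold changes turned under some alternatives, Psme3 under upper-quartile normalization among them. Exons of Psme4 overlap 156 bases of Erlec1 on the opposite strand, and the sources used here do not say whether the counting used strand.

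**Figure D2:**
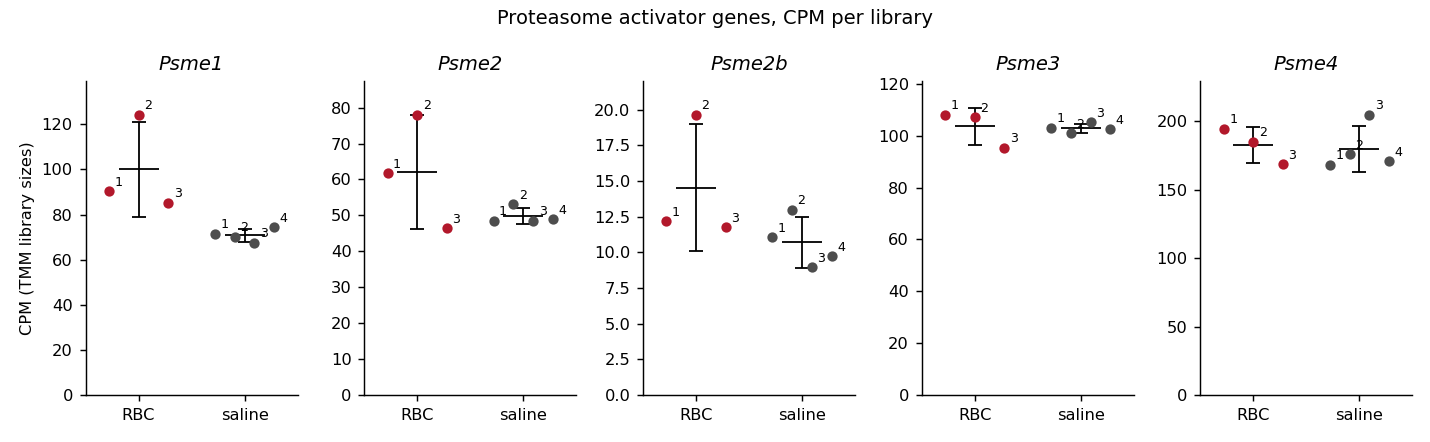
CPM of the 5 activator genes in each library, with RBC libraries (3 points) left of saline libraries (4 points), replicate numbers beside the points, and bars for mean and SD. Psme1 is the only panel in which all RBC points lie above all saline points, and RBC 2 is the highest point for Psme1, Psme2 and Psme2b.

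On GRCm39, the build of the deposited table, Psme1 spans 55815951 to 55818984 of chromosome 14 (plus strand) and Psme2 spans 55824897 to 55828558 of the same chromosome (minus strand). Psme2b spans 48836172 to 48837237 (minus strand), Psme3 101206090 to 101214363 (plus strand) and Psme4 30721753 to 30831150 (plus strand) of chromosome 11.

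The 14 genes of the 20S core had a median log2 fold change of 0.10, and 12 of 14 were above 0. None of them passed the edgeR test, and 1, Psma7, had an unadjusted p under 0.05. The median was 0.08 without RBC 2 and 0.16 without RBC 3. Among the catalytic subunits Psmb5, which cuts after hydrophobic residues, had 44.1, 45.8 and 39.7 CPM in RBC 1 to 3, against 43.4, 43.8, 39.6 and 47.7 CPM in saline 1 to 4. Psmb7, which cuts after basic residues, had 127, 131 and 120 CPM in RBC 1 to 3, against 125, 126, 120 and 136 CPM in saline 1 to 4. For both genes the RBC values lay within or at the edge of the saline range, with log2 fold changes of -0.01 ± 0.09 and -0.01 ± 0.07 (SE), whose sign turned under several alternatives. Psmb6, which cuts after acidic residues, had 143.5, 162 and 129 CPM in RBC 1 to 3, against 133, 144, 119 and 144 CPM in saline 1 to 4, with overlapping groups and a log2 fold change of 0.10 ± 0.09.

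All 7 genes of the outer alpha ring had positive log2 fold changes, between 0.09 for Psma4 and 0.20 for Psma7. Psma7, the alpha-4 subunit, had 80.4, 89.7 and 79.5 CPM in RBC 1 to 3, against 74.0, 69.8, 69.5 and 76.4 CPM in saline 1 to 4. The groups did not overlap, by a margin of about 3 CPM between RBC 3 and saline 4, and the ratio was 1.15 (log2 fold change 0.20 ± 0.08, SE, edgeR adjusted p = 0.379). Psma3, the alpha ring gene with the most counts, had 139, 139 and 111.5 CPM in RBC 1 to 3, against 122, 109, 128 and 119 CPM in saline 1 to 4. RBC 3 fell inside the saline range there, and the log2 fold change was 0.12 ± 0.09 (edgeR adjusted p = 0.760).

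In the beta ring 5 of 7 genes were above 0, Psmb5 and Psmb7 being the exceptions, and the median was 0.09. Psmb2, a subunit without a cutting site and the one with the smallest p of the ring, had 62.8, 64.3 and 56.5 CPM in RBC 1 to 3, against 56.2, 57.6, 53.7 and 55.4 CPM in saline 1 to 4 (log2 fold change 0.14 ± 0.08, SE, edgeR adjusted p = 0.632). Psmb4, a structural subunit with the most counts of the ring, had 176, 163 and 149 CPM in RBC 1 to 3, against 157.5, 156, 146 and 154.5 CPM in saline 1 to 4. RBC 3 overlapped the saline range for both genes, and the log2 fold change of Psmb4 was 0.09 ± 0.07.

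The 17 cap genes all had positive log2 fold changes, with a median of 0.09 and a range of 0.02 (Psmc4) to 0.21 (Psmd7). The number above 0 was 13 without RBC 2, 14 without saline 3 and 15 without RBC 2 and saline 4, and 17 under all other alternatives. None passed the edgeR test, and 1 had an unadjusted p under 0.05. Psmd7, the structural partner of the deubiquitinase Psmd14 in the lid, had 94.6, 95.9 and 83.8 CPM in RBC 1 to 3, against 80.4, 74.5, 81.7 and 80.4 CPM in saline 1 to 4. The groups did not overlap, and the ratio was 1.15 (log2 fold change 0.21 ± 0.08, SE, edgeR adjusted p = 0.353). Psmd2, a scaffold of the cap base and the member with the most counts of its group, had 314, 300.4 and 272 CPM in RBC 1 to 3, against 272, 271, 256 and 291 CPM in saline 1 to 4. RBC 3 again lay inside the saline range, and the log2 fold change was 0.12 ± 0.07 (edgeR adjusted p = 0.659).

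Psmd11, a lid scaffold, had the smallest coefficient of variation over saline libraries among the 44 members tested, 0.624%. It had 98.3, 98.5 and 94.2 CPM in RBC 1 to 3, against 91.2, 91.0, 89.95 and 90.3 CPM in saline 1 to 4, without overlap (log2 fold change 0.10 ± 0.07, SE, edgeR adjusted p = 0.717). Among the 6 ATPases, Psmc1 had the smallest p, with 112, 110.1 and 107.9 CPM in RBC 1 to 3, against 107.3, 97.2, 103 and 106 CPM in saline 1 to 4, and a gap of less than 1 CPM between the groups (log2 fold change 0.09 ± 0.07). Psmc3, the ATPase with the most counts, had 194, 208 and 181 CPM in RBC 1 to 3, against 197, 199.8, 177 and 191 CPM in saline 1 to 4, and the groups overlapped. Its log2 fold change was 0.03 ± 0.07, and negative without RBC 2, without saline 3 and without RBC 2 and saline 4.

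The chaperones that assemble the cap base had log2 fold changes of both signs. Psmd10, the ankyrin-repeat protein gankyrin, had 33.3, 41.4 and 31.1 CPM in RBC 1 to 3, against 27.0, 32.7, 26.6 and 30.6 CPM in saline 1 to 4. Saline 2 lay above RBC 3, and the log2 fold change was 0.28 ± 0.12 (SE, unadjusted p = 0.0447, edgeR adjusted p = 0.499) and 0.15 without RBC 2. Psmd5 had 50.5, 44.2 and 45.8 CPM in RBC 1 to 3, against 47.7, 50.7, 51.6 and 54.9 CPM in saline 1 to 4, with overlapping groups and a log2 fold change of -0.13 ± 0.08. Psmd9 had a log2 fold change of 0.15 ± 0.12. Exons of Psmd10 share 54 bases with Atg4a on the opposite strand.

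Psmf1, which encodes PI31, first described as an inhibitor of the core, had the lowest log2 fold change of the set. It had 39.3, 41.3 and 36.2 CPM in RBC 1 to 3, against 42.1, 46.7, 41.0 and 41.7 CPM in saline 1 to 4. RBC 2 lay within the saline range and the others below it (log2 fold change -0.14 ± 0.09, SE, edgeR adjusted p = 0.707). Psmg1 to Psmg4, the chaperones of the core, had log2 fold changes between -0.06 and 0.32. Psmg2, with the most counts among them, had 24.5, 24.7 and 26.4 CPM in RBC 1 to 3, against 23.8, 23.3, 27.4 and 24.1 CPM in saline 1 to 4. Psmg4 had 53, 62 and 41 counts in RBC 1 to 3, against 33, 43, 47 and 34 counts in saline 1 to 4 (log2 fold change 0.32 ± 0.22). Neither separated the groups.

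The 2 core subunits known for a single tissue had few counts. Psmb11, the catalytic subunit of the thymus, had 1, 0 and 1 counts in RBC 1 to 3, against 1, 0, 3 and 0 counts in saline 1 to 4. Psma8, the alpha subunit of the testis, had 7, 6 and 10 counts in RBC 1 to 3, against 12, 7, 12 and 5 counts in saline 1 to 4. Neither passed the filter. Psmb11 was at or under a floor of 3 counts in every library (0.358 to 0.683 CPM), and Psma8 was above it.

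Levels between genes were compared as mean CPM per kb of exon. The beta ring had a median of 119 per kb in RBC and 120 in saline, the alpha ring 60.9 and 57.2, the ATPases 74 and 71.2, and the other cap subunits 57.1 and 49.9. All of these lay above the median of all genes tested, which was 7.45 per kb in RBC and 7.34 in saline. Within the core, levels in saline differed 4.51-fold between Psmb4 (162 per kb) and Psma3 (35.9 per kb). The exon length of the table is the union over transcripts, so genes with long, little-used exons come out low on this scale. Psme1 (102 ± 21.7 per kb in RBC, 72.5 ± 2.94 in saline) and Psme2 (63.5 ± 16.2 and 50.9 ± 2.30) were in the range of the core genes, while Psme3 had 25.1 ± 1.71 and 25.0 ± 0.423 and Psme4 23.9 ± 1.72 and 23.5 ± 2.21 (SD, n = 3 and n = 4). The core chaperones (13.3 to 18.9 per kb in RBC, 11.4 to 18.5 in saline) and Psmf1 (10.4 and 11.4) were lower.

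**Figure D3:**
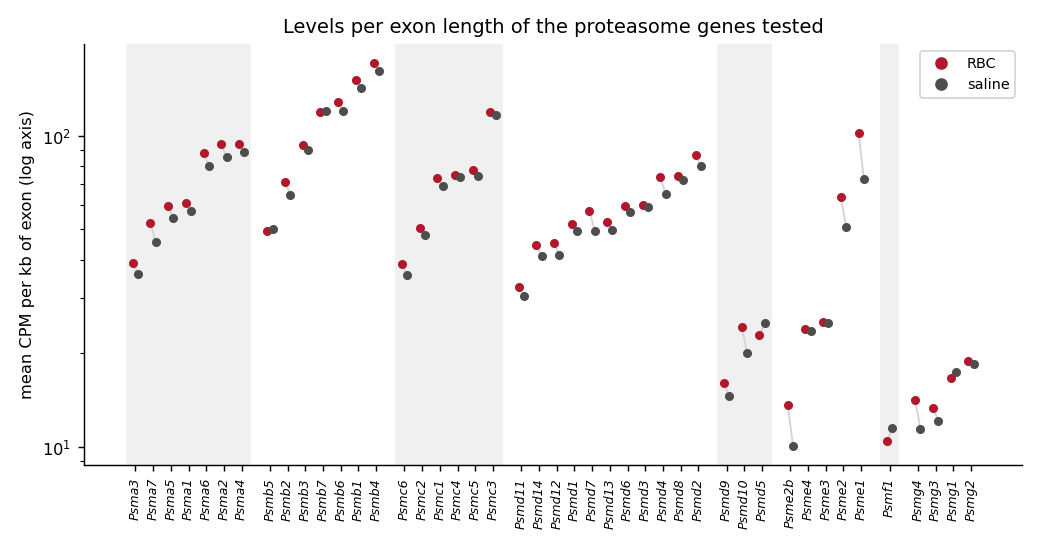
Mean CPM per kb of exon (log axis) of each tested member in RBC (red, left point) and saline (grey, right point), grouped by role and ordered by the saline level. Psmb4 is highest with 171 in RBC and 162 in saline, and the wide step between the points of Psme1 (102 and 72.5) can be set beside the small steps of most core and cap genes.

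The mean of Psme1 and Psme2, as a percentage of the mean of the 14 core genes per kb, was 83.8, 110 and 78.7% in RBC 1 to 3, against 72.4, 74.7, 70.6 and 71.2% in saline 1 to 4. The RBC libraries were all above the saline libraries on this ratio, by 4 percentage points or more. Psme1 is part of this mean and did not overlap by itself. Psme2 in RBC 3 lay below every saline library (46.4 CPM, against 48.5 to 53.1 CPM), so both genes did not share the separation there. For Psme3 the same ratio was 28.3, 27.6 and 27.1% in RBC 1 to 3, against 29.5, 29, 30.4 and 28.1% in saline 1 to 4. The core as a percentage of the cap gave overlapping groups, with 143, 144 and 146% in RBC 1 to 3, against 142, 143, 148 and 142% in saline 1 to 4.

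The libraries differed in how the core and cap stood. The median core gene was at 0.14, 0.16 and -0.001 (log2, relative to its saline mean) in RBC 1, 2 and 3, against -0.01, -0.01, -0.05 and 0.09 in saline 1 to 4. The median cap gene was at 0.15, 0.13 and -0.02 in RBC 1 to 3, against 0.02, -0.01, -0.04 and 0.05 in saline 1 to 4. RBC 3 lay within the saline range for both, and RBC 1 and RBC 2 above it. The pair of Psme1 and Psme2 was at 0.33, 0.73 and 0.08 in RBC 1 to 3, against -0.01, 0.04, -0.05 and 0.02 in saline 1 to 4, so RBC 2 was highest and RBC 3 closest to saline.

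**Figure D4:**
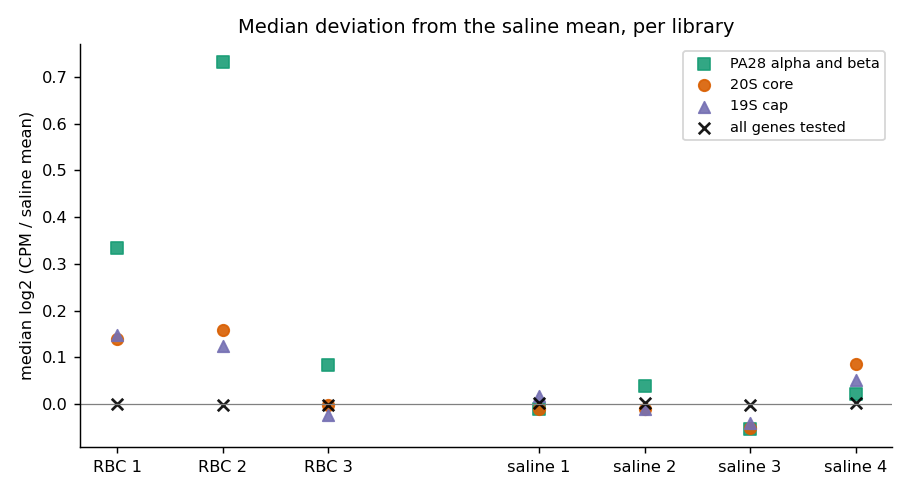
Median log2 ratio of CPM to the saline mean (y axis) in each of the 7 libraries for PA28 alpha and beta (squares), the 20S core (circles), the 19S cap (triangles) and all genes tested (crosses). Core and cap reach about 0.15 in RBC 1 and RBC 2 and lie near 0 in RBC 3, while PA28 alpha and beta reach 0.73 in RBC 2.

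The inducible catalytic subunits, which can take the places of the constitutive ones in newly built cores, were set beside them per kb. Psmb8 amounted to 32.7, 125 and 16.6% of Psmb5 in RBC 1 to 3, against 2.66, 3.13, 3.44 and 5.53% in saline 1 to 4, and Psmb10 to 7.72, 14.6 and 6.66% of Psmb7, against 4.82, 5.51, 5.32 and 4.38%. Psmb9 amounted to 2.84, 11.2 and 1.11% of Psmb6 in RBC 1 to 3, against 0.683, 0.683, 0.528 and 1.41% in saline 1 to 4, where RBC 3 lay below saline 4. All 3 had positive log2 fold changes (4.07 ± 0.93, 0.96 ± 0.27 and 2.89 ± 0.92, SE, for Psmb8, Psmb10 and Psmb9), with edgeR adjusted p between 0.212 and 0.346, and DESeq2 called Psmb8 and Psmb9. Without RBC 2 these values were 2.75 for Psmb8, which then passed (edgeR adjusted p = 0.0176), 0.50 for Psmb10 and 1.40 for Psmb9. Without RBC 3 Psmb10 passed (1.18, edgeR adjusted p = 0.0302).

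**Figure D5:**
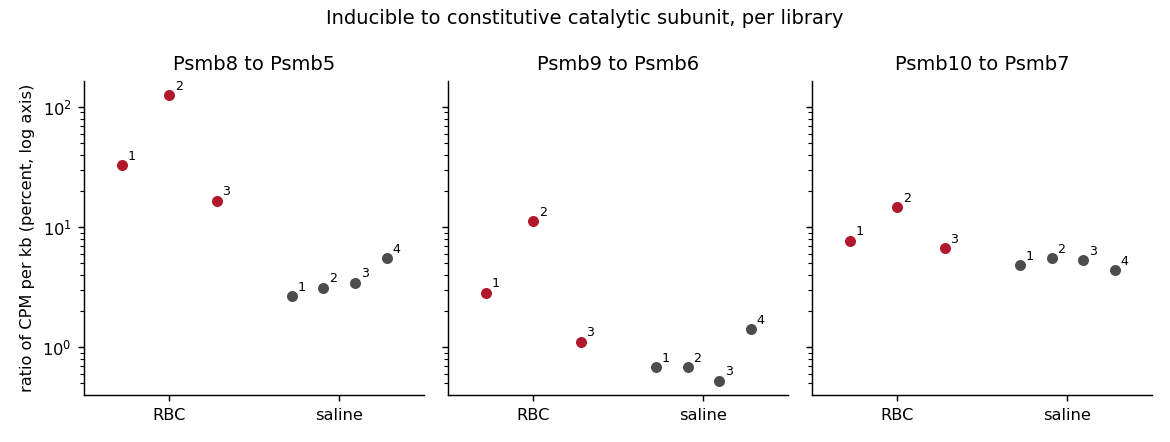
Level of each inducible catalytic subunit as a percentage of its constitutive counterpart (CPM per kb, log axis) in RBC libraries (red, left) and saline libraries (grey, right), with replicate numbers beside the points. RBC 2 is highest in all 3 panels, at 125% for Psmb8 to Psmb5, and the groups are apart in the panels of Psmb8 and Psmb10.

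Other genes of the pathway were taken from lists by role. Of 13 further subunits and bound factors 10 were above 0 and 0 passed over all genes in edgeR, with a median log2 fold change of 0.07. Pomp, the maturation factor of the core, had 0.13 ± 0.09 (SE), the ubiquitin receptor gene Adrm1 0.03 ± 0.10 and the small lid subunit gene Sem1 0.08 ± 0.08. Usp14, a deubiquitinase bound to the cap, had the only unadjusted p under 0.05 of that list (65.55, 67.2 and 66.3 CPM in RBC 1 to 3, against 53.05, 52.6, 65.4 and 59.3 CPM in saline 1 to 4, edgeR adjusted p = 0.494). Of 8 regulators 3 were above 0, and 0 passed in edgeR with all libraries and the count filter. Nfe2l1, the factor known to raise proteasome genes when the proteasome is blocked, had 0.05 ± 0.06. Nfe2l2, the antioxidant factor Nrf2, had 0.25 ± 0.09 (edgeR adjusted p = 0.306). Stat3 had 0.70 ± 0.14 (edgeR adjusted p = 0.104, DESeq2 adjusted p = 0.000445). Stat3 passed in edgeR without RBC 3 (adjusted p = 0.00163) and with no count filter (adjusted p = 0.0449). It also passed in limma-voom with sample weights (adjusted p = 0.0459).

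Of 6 ubiquitin and E1 genes 5 were above 0, with a median of 0.05 and 0 at an unadjusted p under 0.05. Of 10 shuttle and p97 genes 6 were above 0 (median 0.02), and Ubqln4, a ubiquitin shuttle, had 0.23 ± 0.07 (unadjusted p = 0.00959, edgeR adjusted p = 0.266). The lists that stood far from these were the class I peptide path, with 10 of 10 genes above 0 and a median of 1.85, and the interferon response, with 14 of 14 above 0 and a median of 3.36. With all libraries, the count filter and robust estimation, none of the genes of these lists passed the edgeR test. In the first list 9 genes (Tap1, Tap2, Tapbp, Erap1, B2m, H2-K1, H2-D1, Nlrc5 and Calr) had an unadjusted p under 0.05, and in the second all 14. Over all genes tested that share was 9.54%. By DESeq2 these lists had 7 and 13 calls, where 1.62% of all genes it tested were called. Without RBC 2 edgeR called 3 genes of the first list (Tapbp, B2m and Nlrc5) and 1 of the second (Bst2, adjusted p = 1.73e-06). Without RBC 3 it called 3 and 5. Over all genes it called 34 without RBC 2 and 283 without RBC 3. Irf1, a transcription factor of that response, had 20.1, 34.5 and 17.0 CPM in RBC 1 to 3, against 14.48, 11.4, 10.3 and 15.1 CPM in saline 1 to 4. The order RBC 2, RBC 1, RBC 3 was that of Psme1, Psme2 and Psmb8, but it was not particular to them. Psma7, Psmb6, Psmd7, Psmd10 and Psmf1 had it too, and Psmf1 had the lowest log2 fold change of the set. How many of all genes had this order was not counted.

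Marker lists of other cell types were summed in each library. The 10 macrophage markers summed to between 362 and 518 CPM in RBC, against 234 to 312 CPM in saline, with 10 of 10 above 0. All 10 had an unadjusted p under 0.05 in edgeR, against 9.54% of all genes. DESeq2 called 7 of them (Adgre1, Csf1r, C1qa, C1qb, C1qc, Cx3cr1 and Mrc1), against 1.62% of all genes it tested. Adgre1, the F4/80 antigen, passed the edgeR test with all libraries (log2 fold change 1.09 ± 0.15, SE, adjusted p = 0.0280). It did not pass without saline 1, 2 or 3 (adjusted p = 0.132, 0.172 and 0.171), with the replicate block (0.133) or with limma-voom (0.0501). Of the RBC libraries, RBC 1 and not RBC 3 had the lowest macrophage sum. The 10 neutrophil and monocyte markers summed to between 4.91 and 73.3 CPM in RBC, highest in RBC 2, against 2.41 to 19.3 CPM in saline, and Ly6g had 0 counts in every library. The 5 T and B cell markers summed to at most 0.912 CPM in RBC and 0.477 CPM in saline, with Ms4a1 at 0. The erythroid markers (2267 to 2852 CPM in RBC, 2169 to 3296 in saline) overlapped between groups. The mesenchymal markers summed to 1163, 1006 and 1784 CPM in RBC 1 to 3, against 1167 to 1306 CPM in saline, and the endothelial markers to 809.5, 729 and 1033 CPM in RBC 1 to 3, against 864 to 897 CPM in saline. RBC 3 was the highest of the 7 libraries and RBC 2 the lowest for both lists. The choroid plexus epithelium markers, which check the tissue, were detected in every library, and 7 of 8 had negative log2 fold changes, 2 of them with an unadjusted p under 0.05 (Folr1 and Aqp1), of which DESeq2 called Aqp1. All 8 together summed to 15781, 16996 and 17385 CPM in RBC 1 to 3, against 15860 to 20632 CPM in saline, so the groups overlapped. Ttr holds most of these counts. Without it the markers summed to 5628, 5439 and 5277 CPM in RBC 1 to 3, against 5890, 5900, 5843 and 6012 CPM in saline 1 to 4, without overlap. The part of these cells in the values of Psme1, Psme2, the inducible subunits, the core and the cap was not tested.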

How the data were processed

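Poly(A) RNA was made into directional libraries, per the labels' protocols. The authors deposited raw read counts per gene together with gene positions and exon lengths, per the file headers. Cutadapt 2.5, STAR 2.6.1b, featureCounts 2.0.6 and GRCm39 are named in the submitters' processing notes. The sources used here do not state the annotation release or how the counting treated strand and multi-mapping reads. The lines of 6 genes are broken and were left out. Their continuation lines carry no gene name and 0.107% of counts.

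Counts of 40873 genes were tested with edgeR 4.0.16 in R 4.3.3 (glmQLFit and glmQLFTest, robust, two-sided, TMM, filterByExpr by group, no block). Benjamini-Hochberg adjustment ran over 14869 genes, with a threshold of 0.05. Standard errors are the absolute log2 fold change divided by the root of the F statistic. CPM of genes use TMM library sizes, and summed marker CPM use total counts. The common biological coefficient of variation was 13.7%. No pair of libraries within a group agreed within sampling noise (chi-square per degree of freedom of 3.6 or more). The scripts were tested on simulated data. There edgeR called 0% of 50 genes changed 1.2-fold and 56% of 50 genes changed 1.5-fold. A change of the size of the core and cap medians could therefore go uncalled.

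The members, lists, alternatives and naming rule were chosen with earlier results of these data known. Named with values in every library were all Psme genes, the catalytic subunits, members with an unadjusted p under 0.05, and in each role the members with the most counts and the smallest p. Psmd11 was added after its values were seen. Alternatives were DESeq2 1.42.0, limma-voom (limma 3.58.1) with and without sample weights, other normalizations, filters and thresholds, no robust estimation, a replicate block, and libraries left out.

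Promoter windows came from RefSeq (GRCm38.p6) and shared 75-base words from GENCODE M21 transcripts. No coordinates were carried between builds. Over 10% of words were shared with another gene for 7 members (Psma3, Psma5, Psmb3, Psmb5, Psmd9, Psme2 and Psme2b), so their counts depend on the handling of multi-mapping reads.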

Additional observations from a re-analysis of the deposited data

Results flagged for a closer look

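Saline libraries that stood apart from the other 3 of their group were looked for in 49 groups of values (the 44 members, the inducible catalytic subunits, and the sums of core and cap). A gap to the nearest library that was large against the whole range was found in 3 of the 49. Chance gives about 1 in 20, so this share lay near what chance gives. For Psme2, saline 2 stood at 53.1 CPM, and the other saline libraries at 48.5 to 48.9 CPM. For Psmd8, saline 3 stood at 102 CPM, and the others at 111 to 112 CPM. For Psmb8, saline 4 stood at 3.71 CPM, and the others at 1.63 to 1.93 CPM. The 3 RBC libraries are too few for this check.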

How the results depend on the processing

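The medians of the 20S core (0.0794 to 0.155), the 19S cap (0.0697 to 0.121) and PA28 alpha and beta (0.221 to 0.545) were positive under all 18 alternatives. The number of genes past the threshold was 282 with DESeq2, 48 with limma-voom and sample weights, 136 with no count filter, 16 with no robust estimation, 40 without RBC 2 and saline 4, 1 at an adjusted p of 0.01, 46 at an adjusted p of 0.10, and 1 to 283 with 1 library left out. The number of members was 1 with DESeq2 and with no count filter (Psme1), and 0 to 2 with 1 library left out, the 2 being Psme1 and Psme2 without RBC 3. Psme1 passed with DESeq2 (log2 fold change 0.504), with no count filter (0.506) and without RBC 3, and lay between 0.313 and 0.601 with 1 library left out. The cause of these differences was not tested.

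Among the 21 named members, 6 changed sign under some alternative. Outside these 21, Psmc4 (-0.0298 to 0.0859), Psmc5 (-0.00946 to 0.137) and Psmd3 (-0.0368 to 0.0771) changed sign over the alternatives too. Psmb5 was at 0.0051 with limma-voom, 0.0065 with sample weights and -0.051 to 0.0496 with 1 library left out. Psmb7 was at 0.00124 with DESeq2, 0.00227 with sample weights, 0.00237 with no count filter, 0.0041 without RBC 2 and saline 4, and -0.0353 to 0.0374 with 1 library left out. Psme3 was at -0.00805 with upper-quartile normalization. Without RBC 2 and saline 4, Psme3 was at -0.0122, Psme4 at -0.00749 and Psmc3 at -0.0204. With 1 library left out, Psme3 ran from -0.0192 to 0.065, Psme4 from -0.0231 to 0.0963, Psmc3 from -0.0242 to 0.0762 and Psmg2 from -0.00576 to 0.0928.

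Libraries with the same replicate number did not deviate together (correlations of -0.008, -0.173 and -0.173), and RBC 1 correlated best with saline 3 (0.261). With the replicate number as a block over 3 pairs, 2 genes and 0 members passed, Psme1 was at 0.509, Psmb5 at 0.037 and Psmb7 at 0.0359. Members at low counts, such as Psmg4 and Psme2b, had the widest standard errors (0.223 and 0.209), which limits what their values show.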
